A study of Mus musculus with 4 samples.

Results

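The genes described here are 7 markers of the neural crest, of glia and of neurons: Foxd3, Sox10, S100b, Tubb3, Elavl4, Stmn2 and Th. They were found as the non-control probes of the array that carry one of these names, which gave 8 probes of 39429, or 7 of the 29875 gene names on the array. The RNA came from ureters of NMRI mouse embryos at E14.5 (embryonic day). Mutants carried Tbx18(cre/+), a cre allele at the Tbx18 locus, together with Fgfr1(fl/fl) and Fgfr2(fl/fl), in which both fibroblast growth factor receptor genes are floxed on both alleles. They are called cDKO (conditional double knockout) below. Controls were labelled Fgfr1(fl/?) with Fgfr2(fl/?), that is, with at least 1 floxed allele of each gene, an unstated other allele and no cre. Each of 4 two-colour arrays compared 1 cDKO with 1 control extract, both of 1 sex label. On replicates 1 and 3 the mutant RNA carried the red dye (Cy5), and on replicates 2 and 4 the green dye (Cy3). Replicates 1 and 2 shared slide 1 and replicates 3 and 4 shared slide 2, which was scanned separately on another scanner.

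Neural crest cells leave the dorsal neural tube and migrate through the embryo, where they form the glia and neurons of the peripheral nervous system and the catecholamine cells of the sympathetic chain, the paraganglia and the adrenal medulla. Foxd3 and Sox10 are transcription factor genes of crest cells and their glial descendants, and S100b is a calcium-binding protein of Schwann and satellite glia. Tubb3, Elavl4 and Stmn2 encode a tubulin, an RNA-binding protein and a tubulin regulator of young neurons. Th encodes tyrosine hydroxylase, the rate-limiting enzyme of catecholamine synthesis. Tbx18 marks the mesenchyme around the ureter bud, so its cre allele is known as a driver in that mesenchyme, and neural crest is another lineage. In whole-ureter RNA, fewer cells of a type and less RNA per cell cannot be told apart.

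The probes are the only sequences that the ratios below rest on. The first 30 of the 60 bases of each probe are shown to identify it. Nothing is marked by capitals in them. Positions are those of build mm9, as the scanner files give them. No mm9 annotation was used here, so exons and untranslated regions are not assigned.
Foxd3, chr4:99325170-99325229, plus strand: ctctgcgcagttttatctgagaaaaagaat
Sox10, chr15:78985518-78985577, minus strand: tacagtctacctttgccttgcaccctttgc
S100b, chr10:75723783-75723842, plus strand: gaagctggacttgaggctttctaacttgca
Tubb3, chr8:125945850-125945909, plus strand: ggttgtgtttatattcggggggaggggtat
Elavl4, brighter probe, chr4:109877455-109877514, minus strand: gggaagaagcatattactgtgtccttctgt
Elavl4, dimmer probe, chr4:109878558-109878617, minus strand: ctttaccaccttccttgaaggtgggtcttt
Stmn2, chr3:8561545-8561604, plus strand: tcttcttgtatgtcattgtgagcaagctgt
Th, chr7:150078703-150078762, minus strand: ccaggatggtcctgcattcctcctgccctt

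Across the series, the median spot signal lay between 138.7 and 417.3 over the 8 extracts, and 64.9% to 72.6% of spots were well above background. Of the brightest kept probes of the targeted and driver genes, Fgfr2 gave a log2 ratio of 0.59 ± 0.07 (adjusted p = 0.0356), Fgfr1 -0.40 ± 0.10 (0.117) and Tbx18 0.26 ± 0.08 (0.164; limma, n = 4). The deleted parts are not given in the sources used here, so these probes do not check the labels. Of 8 genes listed for ureter mesenchyme and smooth muscle and 8 for urothelium, every gene was above background. The ratios of 2 arrays correlated across genes with r between 0.01 (replicates 2 and 3) and 0.51 (replicates 1 and 2), where genes are not independent replicates.

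None of the 7 genes passed the test between cDKO and control (limma, Benjamini-Hochberg adjusted p under 0.05 over 19365 genes), where 0.852% of all genes did. At an unadjusted p under 0.05 there were 3 of 7, S100b, Th and Tubb3, beside 19.6% of all genes. S100b alone was negative on all 4 arrays, as 11.8% of genes were, and none was positive on all 4, as 13.4% were. Each of the 7 genes had its highest ratio on replicate 3, whereas 24.0% of all genes did. The 7 genes share the extracts of that array, so this is 1 observation on 1 pair of extracts and not 7. The median log2 ratio of the 7 genes was -0.28, -0.51, 0.41 and -0.37 on replicates 1 to 4, beside medians over all genes between -0.01 and 0.01. All 8 probes were kept, with all 4 of their spots well above background in both channels of every array. The standard deviation (SD) between the spots of a probe on an array (4, or 3 for Sox10 on replicate 2, Stmn2 on replicate 4 and Th on replicate 3) was 0.01 to 0.18, whereas the SD between the 4 arrays was 0.22 to 0.94 for these genes.

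**Figure D1:**
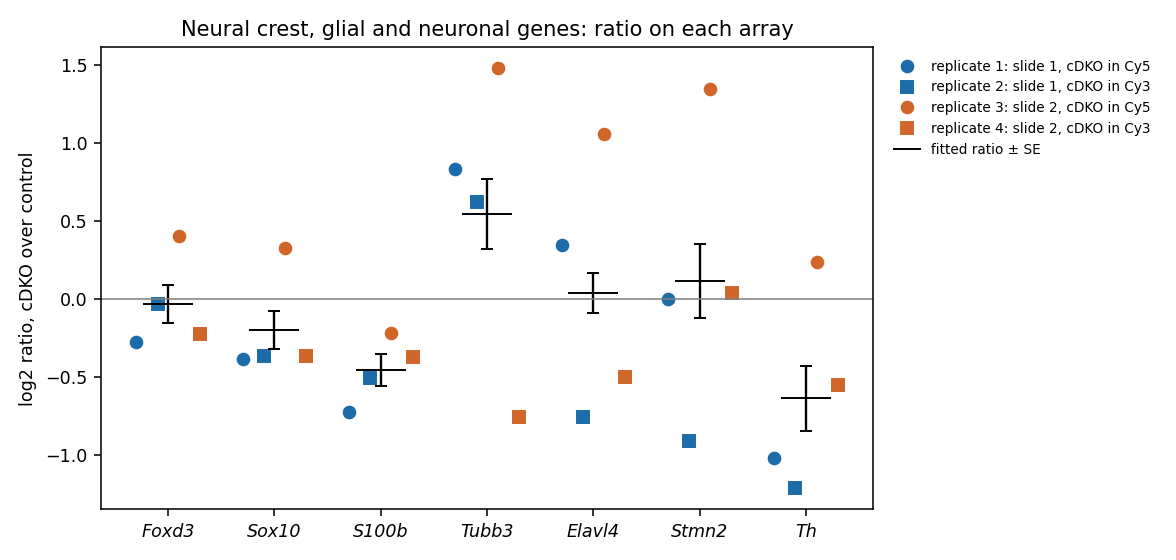
Log2 ratio of cDKO over control for each of the 7 genes on each of the 4 arrays (points; colour gives the slide and shape the dye of the cDKO RNA), with the fitted ratio and its standard error over the 4 arrays (bars). Replicate 3 is the highest point for every gene, and S100b is the only gene with all 4 points below 0.

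Foxd3, a transcription factor gene of premigratory and early migrating crest, was close to the lower end of what the arrays measured. Its log2 level was 7.11, 7.18, 7.60 and 7.24 in the cDKO extracts of replicates 1 to 4 and 7.39, 7.21, 7.19 and 7.46 in the controls. The lowest signal among probes well above background lay between 6.61 and 6.97 in these 8 extracts. This floor was 6.90 in the cDKO extract of replicate 3 and 6.97 in the control of replicate 4, both red on slide 2. In the other extracts it was at most 6.72. Foxd3 was the highest of its genotype in those same red extracts of slide 2, and a link to the floor was not tested. The control and cDKO levels overlapped, and the cDKO extract of replicate 3 was the highest of the 8. The log2 ratios were -0.28, -0.03, 0.41 and -0.22, and the fit gave -0.03 ± 0.12 (standard error, SE, n = 4; adjusted p = 0.919, limma), with a 95% interval from -0.32 to 0.26. A log2 difference of 0.26 to either side is therefore within what these arrays allow for Foxd3. Leaving out replicate 3 gave -0.20 (adjusted p = 0.428, limma). Leaving out replicate 1 turned the sign (0.14, 0.882), as did leaving out replicate 4 (0.02).

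Sox10, which specifies crest derivatives and stays on in glia, gave nearly the same ratio on 3 arrays and the opposite sign on the other. Its levels were 8.67, 8.69, 9.73 and 8.96 in the cDKO extracts and 9.06, 9.06, 9.40 and 9.32 in the controls. The log2 ratios were -0.38, -0.36, 0.33 and -0.37. Replicate 3 held the highest level of both genotypes, and its cDKO extract lay above every control. The fit over all 4 arrays gave -0.20 ± 0.12 (adjusted p = 0.422, limma). Without replicate 3 the ratio was -0.37 (adjusted p = 0.155), and without replicate 1 it was -0.02 (0.997).

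S100b was lower in every cDKO extract than in any control, a separation that 3.33% of all genes showed. The glial protein it encodes binds calcium and is a standard label of Schwann and satellite cells. Its levels were 10.80, 10.79, 10.77 and 10.64 in the cDKO extracts and 11.53, 11.30, 10.98 and 11.01 in the controls. The cDKO extracts lay within a narrow band, and the controls of slide 1 lay above those of slide 2. The log2 ratios were -0.73, -0.51, -0.21 and -0.37, and the fitted ratio was -0.45 ± 0.10, or 0.730-fold (adjusted p = 0.0988, limma, n = 4). The gene did not pass the test after adjustment, and the 95% interval ran from -0.70 to -0.21. An exact sign-flip permutation test on 4 arrays cannot give a two-sided p below 0.125. The slides gave -0.62 (slide 1) and -0.29 (slide 2), and the ratio shifted little between dye orientations (red minus green -0.03).

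**Figure D2:**
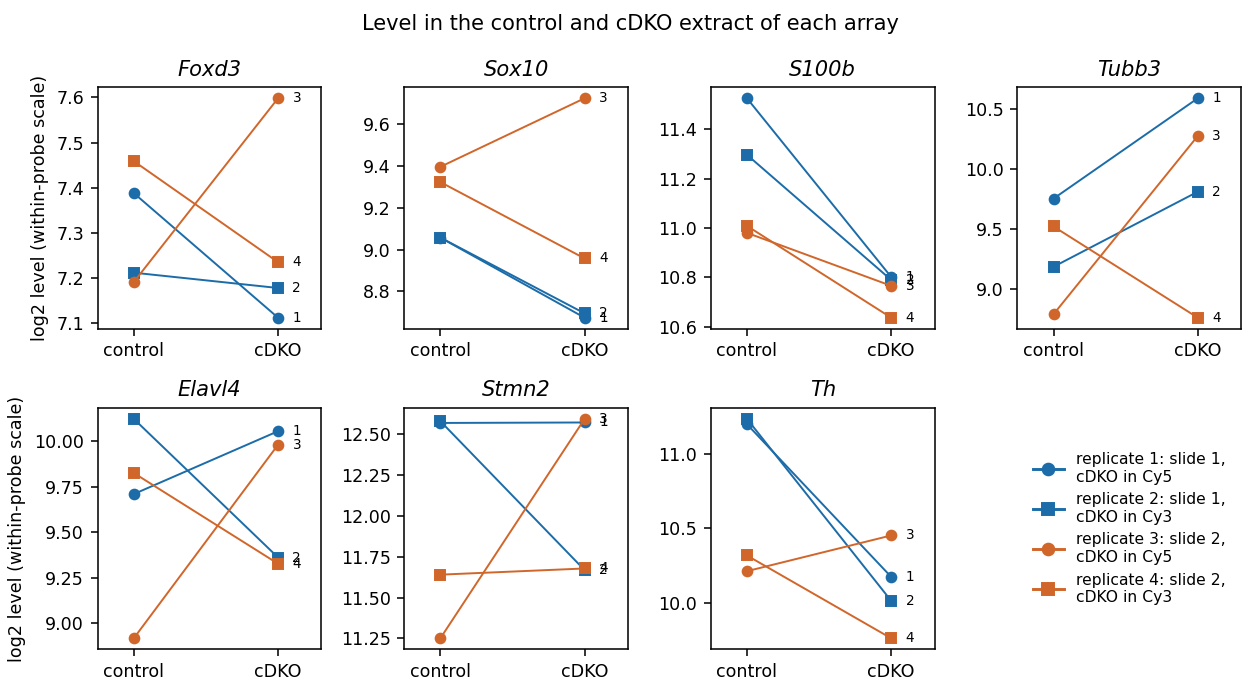
Log2 level of each gene in the control and the cDKO extract of each array, joined by a line per array (numbers are replicates; colour gives the slide and shape the dye of the cDKO RNA). The scale of each panel is that of its own probe, so heights are not comparable between panels. S100b is the only panel in which the cDKO and control levels do not overlap.

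Tubb3, the neuron-restricted beta tubulin, was higher in the cDKO extract on 3 arrays and lower on replicate 4. Its levels were 10.59, 9.81, 10.27 and 8.77 in the cDKO extracts and 9.75, 9.19, 8.79 and 9.52 in the controls. The log2 ratios were 0.83, 0.62, 1.48 and -0.76. Replicates 3 and 4, which shared a slide, had the highest and the lowest ratio. The fit gave 0.54 ± 0.22, or 1.46-fold (adjusted p = 0.247, limma). Without replicate 4 the ratio was 0.89 and passed the test (adjusted p = 0.039; 2.08% of genes passed there). Without replicate 2 it was 0.20 (adjusted p = 0.544, limma). A fit with 1 array left out keeps the dye term and has 1 residual degree of freedom. The only spread it measures is that between the 2 arrays with the same dye orientation. The ratio was 1.05 on the 2 arrays with male labels and 0.04 on the 2 with female labels, a difference of -1.01 ± 0.24 (female minus male; adjusted p = 1, limma). That contrast has the same signs over the 4 arrays as the product of dye and slide, so sex label and this product cannot be told apart.

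Elavl4, an RNA-binding protein gene of postmitotic neurons, followed the dye. At its brighter probe the log2 ratios were 0.34 and 1.06 on replicates 1 and 3, with red cDKO RNA, and -0.76 and -0.50 on replicates 2 and 4, with green. Its levels were 10.05, 9.36, 9.98 and 9.33 in the cDKO extracts and 9.71, 10.12, 8.92 and 9.82 in the controls. Red cDKO extracts were thus above both green ones, and among controls the 2 red extracts (replicates 2 and 4) were above the 2 green ones. The difference between dye orientations was 1.33 (adjusted p = 0.232, limma), and the fitted ratio, which averages over the orientations, was 0.04 ± 0.13 (adjusted p = 0.908). The dimmer probe gave -0.06, -0.17, 0.60 and -0.18, with a fitted ratio of 0.05 ± 0.12 (adjusted p over probes = 0.873). The probes thus had opposite signs on replicate 1 and the same sign on the other arrays. At the brighter probe the sign turned without replicate 3 (-0.14, adjusted p = 0.61, limma) and without replicate 4 (-0.03). Leaving out replicate 1 gave 0.22 (0.73).

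Stmn2, which destabilises microtubules in growing axons, gave ratios near 0 on 2 arrays and large ones of opposite sign on the other 2. Its log2 ratios were 0.0029, -0.91, 1.34 and 0.04. The levels were 12.57, 11.67, 12.60 and 11.68 in the cDKO extracts and 12.57, 12.58, 11.25 and 11.64 in the controls. The 4 levels near 12.6 came from red and green channels and from both genotypes. The fitted ratio was 0.12 ± 0.24 (adjusted p = 0.835, limma), and its 95% interval from -0.45 to 0.69 was the widest of the 7 genes. Leaving out replicate 3 turned the sign (-0.22, adjusted p = 0.608, limma), as did leaving out replicate 4 (-0.12). Leaving out replicate 1 gave 0.45 (0.544). The slide means were -0.46 and 0.69, and their difference of -1.15 ± 0.16 passed the test of a slide difference (adjusted p = 0.0168, limma, over 19365 genes). With 2 arrays per slide, slide, scan, scanner and the extracts of each slide cannot be told apart.

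Over the 7 genes, 2 had both arrays with red cDKO RNA above both with green, Tubb3 and Elavl4, beside 20.5% of all genes. Among 19 other genes of the neuronal cytoskeleton, of RNA binding and of synapses, 13 had that order, among them Ina (1.06, -0.11, 0.85 and -0.52 on replicates 1 to 4), Nefl (0.66, -0.83, 1.52 and -0.82) and Stmn4 (1.03, -0.25, 1.73 and -0.78). These 3 were named after their values were seen. The median log2 ratio of the 19 genes was 0.46, -0.25, 0.58 and -0.40 on the 4 arrays. Their dye order cannot be told apart from differences between the extracts, since no extract was hybridised in both dyes. None of the 19 passed the test. The smallest p belonged to Mapt, a microtubule-associated protein (0.52 ± 0.12, adjusted p = 0.0962, positive on all 4 arrays), and Chgb, a granin of secretory granules (-1.62 ± 0.36, 0.0962, negative on all 4). They were followed by Syt1, a calcium sensor of synaptic vesicles (-0.43 ± 0.10, 0.101), and Chga, another granin (-1.08 ± 0.28, 0.121).

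Th was lower in the cDKO extract on 3 arrays and higher on replicate 3. Its levels were 10.18, 10.02, 10.45 and 9.77 in the cDKO extracts and 11.20, 11.23, 10.22 and 10.32 in the controls. The log2 ratios were -1.02, -1.21, 0.24 and -0.55. Control levels on slide 1 were above all others, and the cDKO extract of replicate 3 was above both controls of slide 2. The fit gave -0.64 ± 0.21, or 0.643-fold (adjusted p = 0.177, limma), with a 95% interval from -1.14 to -0.14. The slides gave -1.12 (slide 1) and -0.16 (slide 2), and the difference of -0.96 ± 0.17 passed the test (adjusted p = 0.049998, limma), just inside its threshold of 0.05. Without replicate 3 the ratio was -0.95 and passed the test between genotypes (adjusted p = 0.0338), as did 1.37% of all genes. Without replicate 1 it was -0.32 (adjusted p = 0.631), without replicate 2 it was -0.47 (0.389) and without replicate 4 it was -0.80 (0.109).

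Genotype effects differed between slides at an unadjusted p under 0.05 for 3 of the 7 genes, Elavl4, Stmn2 and Th, beside 14.3% of all genes, and after adjustment for 2, Stmn2 and Th, beside 0.893%. Slide means had opposite signs for 3 of 7, Elavl4, Stmn2 and Foxd3, beside 39.0% of all genes. With the slide as a term in the fit, 2 of 7 passed, S100b (adjusted p = 0.00844) and Th (0.00352), beside 12.5% of all genes; that fit has 1 residual degree of freedom, and its p does not count the spread between slides. Within slide 1, 2 of 7 passed, Th (-1.12, adjusted p = 0.00893) and Tubb3 (0.73, 0.0344), beside 2.85% of all genes. Within slide 2 no gene of the 19365 passed, where 1346 had an unadjusted p under 0.05. With median centring in place of loess, Th passed (adjusted p = 0.0294), as did 1.32% of all genes.

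Several other genes of catecholamine cells shared the signs of Th on the 4 arrays. Of 11 measured catecholamine and sympathetic genes, none passed the test, 4 were above 0 and 7 below, and the median was -0.12 beside 0.01 over all genes. Ddc, the decarboxylase that follows Th in the pathway, gave -0.72, -1.30, 0.42 and -0.59 on replicates 1 to 4 (fitted -0.55 ± 0.20, adjusted p = 0.209, limma). Slc18a1, the vesicular monoamine transporter of chromaffin cells, gave -0.94, -1.16, 0.38 and -0.40 (-0.53 ± 0.22, 0.258). Dbh, which converts dopamine to noradrenaline and was named after its values were seen, gave -0.46, -1.20, 0.96 and -1.16. In these 3 genes, as in Th, 3 arrays were negative and replicate 3 was positive. The granins were furthest below 0 on the same 3 arrays, with -2.23, -2.72, -0.03 and -1.48 for Chgb and -1.63, -1.78, 0.17 and -1.05 for Chga. Without replicate 3, a count added after seeing the data, 3 of the 11 genes passed (Dbh, Ddc and Slc18a1, all lower), and so did Chga and Chgb among the 19 neuronal genes, beside 1.37% of all genes. None of the 11 passed without replicate 1, 2 or 4. Without replicate 3, the only spread measured is that between replicates 2 and 4. The dye term takes up the difference to replicate 1. For Dbh these 2 arrays gave -1.20 and -1.16, against -0.46 on replicate 1. Within slide 1 Ddc and Slc18a1 passed, beside 2.85% of all genes, and the slide term added Ntrk3, which was higher, beside 12.5%.

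**Figure D3:**
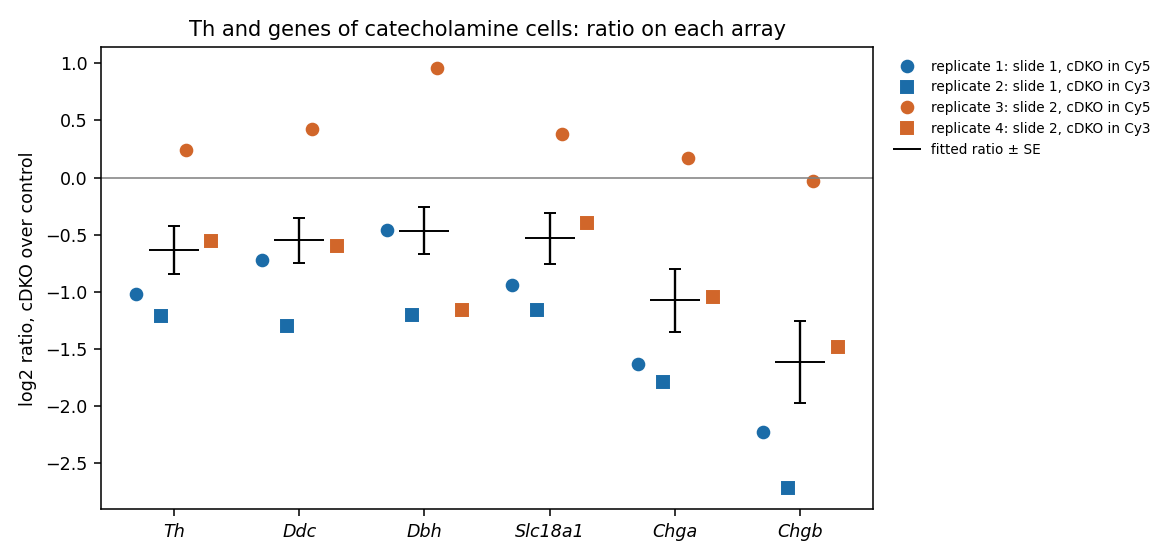
Log2 ratio of cDKO over control on each array (points; colour gives the slide and shape the dye of the cDKO RNA) for Th and 5 other genes of catecholamine cells, with the fitted ratio and its standard error (bars). Replicates 1, 2 and 4 lie below 0 for all 6 genes, and replicate 3 is the highest point of each.

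Not every gene of the list had that pattern. Ntrk3, a neurotrophin receptor of sympathetic and sensory neurons, was positive on all 4 arrays (0.40 ± 0.10, adjusted p = 0.113), as was Maoa, which breaks down monoamines (0.22 ± 0.07, 0.184). Npy, a peptide stored with noradrenaline, gave 0.10, -0.58, 0.24 and -0.59, positive in red and negative in green. Slc6a2 and Chrna3 were not above background by the filter. Of 6 genes listed for adrenal cortex and gonad, Star and Hsd3b1 were not above background either, and the summed signal of the other 4, most of it from Cyp17a1, was 4894 to 7842 in the controls and 4488 to 9074 in the cDKO extracts. None of the 4 passed: the fitted ratios were 0.13 for Amhr2, 0.11 for Cyp11a1, -0.11 for Cyp17a1 and -0.01 for Nr5a1, and Cyp17a1 gave -0.70, 1.04, -0.12 and -0.67 on the arrays. The part of such neighbouring tissue in the Th values was not tested.

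Th was the only one of the 7 genes with both a low p and a match to the cyclic AMP response element close to its start, so its upstream bases are shown with those of Chgb, the gene of the lists with the largest ratio below 0 and the same match. Both are the 250 bases before the start in RefSeq (build GRCm38.p6), read along the gene's strand, with TGACGTCA in capitals.
Th, chr7:142899996-142900245, minus strand: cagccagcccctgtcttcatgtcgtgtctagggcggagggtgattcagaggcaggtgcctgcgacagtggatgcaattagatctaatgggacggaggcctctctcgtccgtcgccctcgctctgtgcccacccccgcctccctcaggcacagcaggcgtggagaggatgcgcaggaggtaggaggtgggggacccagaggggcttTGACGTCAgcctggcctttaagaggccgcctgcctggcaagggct
Chgb, chr2:132781392-132781641, plus strand: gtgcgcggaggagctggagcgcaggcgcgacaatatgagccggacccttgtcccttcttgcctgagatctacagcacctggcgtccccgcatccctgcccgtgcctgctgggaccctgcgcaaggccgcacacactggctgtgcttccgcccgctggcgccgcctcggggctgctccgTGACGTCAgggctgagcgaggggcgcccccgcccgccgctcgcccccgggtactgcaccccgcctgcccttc

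The match begins 45 bases before the start in Th and 72 before it in Chgb. TGACGTCA reads the same on both strands and was found in 1.55% of 32851 windows of this length. Foxd3, whose ratio was near 0, holds it too, 233 bases before its start, whereas the windows of S100b, Tubb3 and Elavl4 do not. Sox10 and Stmn2 had no window. Of the 7 catecholamine and sympathetic genes with a window none holds it. None of 10 crest and autonomic, 8 glial or 10 cholinergic, sensory and enteric genes with a window holds it either. Among 12 neuronal genes with a window only Chgb holds it, and Chga does not. Searched on both strands, the AP-1 motif TGANTCA begins 210 bases before the start in Th and 129 before it in Ddc. It is found in 6.75% of windows. The 2 matches of Th do not overlap. Th and Chgb were picked by their values and by the match. These matches are a description of letters, binding was not measured, and a link to the ratios was not tested.

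Among 11 measured genes of Schwann and satellite glia, none passed the test, and the median log2 ratio was -0.01. Ncmap, a protein of myelinating Schwann cells, had the smallest p and was negative on all 4 arrays (-0.94, -0.90, -0.78 and -0.04; fitted -0.67 ± 0.14, adjusted p = 0.0875, limma). Fabp7, a lipid-binding protein of glial precursors, gave -0.89, -1.04, 0.19 and -0.80 (-0.63 ± 0.17, 0.126), the sign pattern of Sox10. Ngfr, the p75 receptor of crest and glia, gave -0.69, -0.31, 0.10 and -0.31 (-0.30 ± 0.13, 0.268), again with replicate 3 alone above 0. Mbp, a myelin protein, gave 0.20 ± 0.08 (0.237). Erbb3 and Cdh19, which also mark these cells, were not above background by the filter. Fabp7 passed without replicate 3 (-0.90, adjusted p = 0.0219, limma), beside 1.37% of all genes, and Ncmap without replicate 4, beside 2.08%. Both passed with median centring (beside 1.32% of all genes), with the slide term (12.5%) and within slide 1 (2.85%).

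Among 13 measured genes of crest and autonomic progenitors, none passed, with a median of 0.30. Tfap2b and Tfap2a, AP-2 transcription factor genes of crest that other tissues also use, lay just outside the threshold and were positive on all 4 arrays (0.90 ± 0.14, adjusted p = 0.0515, and 0.45 ± 0.08, 0.0561; limma). Gata3, a regulator of sympathetic neurons also used in the urinary tract, gave 0.41 ± 0.10 (0.113). Ednrb, an endothelin receptor of migrating crest, gave -0.37 ± 0.09 (0.118). The median over the 13 genes was 0.29, -0.27, 0.59 and -0.08 on replicates 1 to 4, and 8 of them had both red-cDKO arrays above both green ones. Without replicate 3, Tfap2b (1.09, adjusted p = 0.0171) and Insm1, a zinc-finger gene of sympathoadrenal precursors (-0.87, 0.0317), passed in opposite directions, beside 1.37% of all genes. Of 17 alternatives Tfap2b passed in 11, among them median centring, the scanner's own ratios, the slide term and leaving out replicate 4. It did not pass without replicate 1 or 2, within slide 2, with the sex term, with no filter or as single channels. Its ratios were 1.44 and 0.94 on slide 1 and 0.67 and 0.53 on slide 2. The alternatives reuse the same 4 arrays. With the slide term 10 of the 13 genes passed, 6 higher and 4 lower, beside 12.5% of all genes.

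Among 8 measured cholinergic, sensory and enteric genes, none passed, with a median of -0.04. Ntrk2, a neurotrophin receptor, was negative on all 4 arrays (-0.39 ± 0.08, adjusted p = 0.0782, limma). The next were Slc5a7, the choline transporter (0.18 ± 0.11, 0.44), Calca, a sensory neuropeptide (-0.29 ± 0.23, 0.537), and Chat, which makes acetylcholine (-0.08 ± 0.08, 0.628). Calca gave -0.76, -0.75, 0.80 and -0.46, and passed without replicate 3 (-0.68, adjusted p = 0.0453, limma), beside 1.37% of all genes.

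The medians of the lists were also taken per slide. The median log2 ratio was 0.12 on slide 1 and 0.14 on slide 2 for crest and autonomic progenitors. It was -0.15 and 0.04 for glia, and -0.04 and 0.18 for the neuronal list. It was -0.14 and -0.01 for the catecholamine list and -0.05 and -0.02 for the cholinergic, sensory and enteric list. For the crest, neuronal and catecholamine lists, the 2 arrays of each slide had medians of opposite sign. For the other neural lists this held on slide 2 only. On single arrays the glial median was -0.15, -0.23, 0.19 and -0.04, and the catecholamine median 0.05, -0.32, 0.28 and -0.003. Of the 62 genes counted over these 5 lists, with Ngfr in 2 of them, 7 were positive and 5 negative on all 4 arrays (11.3% and 8.06%), beside 13.4% and 11.8% of all genes.

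**Figure D4:**
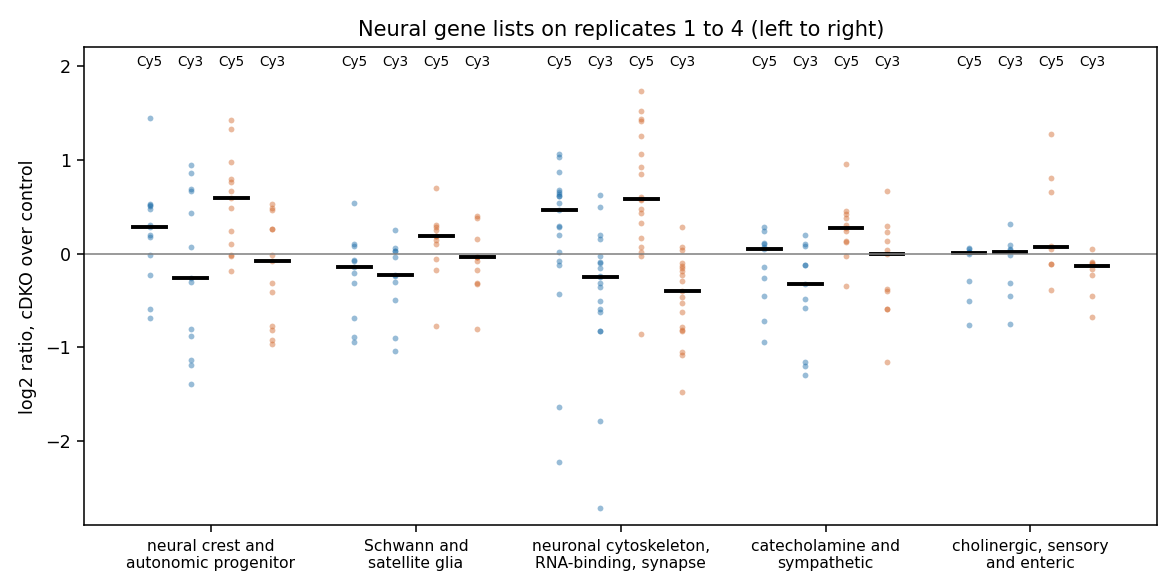
Log2 ratio of cDKO over control for every measured gene of 5 neural gene lists (points) on replicates 1 to 4, drawn from left to right within each list, with the median of the list on that array (black bars), the dye of the cDKO RNA above each column and the slide as colour. The median of the neuronal list alternates with the dye, at 0.46 and 0.58 in red and -0.25 and -0.40 in green.

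Markers of other tissue were measured on the same arrays. Of 8 urothelium genes Upk1b, a uroplakin, fell (-1.43 ± 0.20, adjusted p = 0.0401, limma), and next by p were Upk3a (-0.91 ± 0.15, 0.0558), Upk2 (-0.59 ± 0.14, 0.109) and Shh (0.53 ± 0.14, 0.12). Of 7 macrophage and endothelial genes, 2 fell, Emcn of endothelium (-0.58 ± 0.07, 0.0363) and Fcer1g of myeloid cells (-0.52 ± 0.08, 0.049). The next were Pecam1 (-0.43 ± 0.09, 0.0829) and Csf1r (-0.24 ± 0.07, 0.166). Over all genes, 0.852% passed the test in either direction, and Fcer1g lay just inside its threshold of 0.05. The summed signal of the urothelium list was 21199 to 26726 in the controls and 16475 to 20494 in the cDKO extracts, and that of the macrophage and endothelial list was 24923 to 29820 and 22253 to 24400. For the mesenchyme list the sums were 49366 to 57254 in the controls and 58693 to 65740 in the cDKO extracts. The genotypes did not overlap in these 3 lists. Nor did they in the cholinergic, sensory and enteric list, with 17089.1 to 18924.5 in controls and 13084.5 to 15402.7 in cDKO extracts. Most of that signal came from Ntrk2 alone, with a mean log2 level of 14.01 in controls and 13.61 in cDKO extracts. The next brightest gene of that list, Calca, had 8.90 and 8.61. In the other neural lists the genotypes overlapped. Such sums are weighted to the brightest probes, and how often they separate over all genes was not computed. In the mesenchyme list the smallest p belonged to Tshz3 (0.38 ± 0.08, 0.0953, limma), Sox9 (0.66 ± 0.15, 0.0996) and Tcf21 (-0.27 ± 0.08, 0.138). The summed signal of the 7 neural genes was 7394 to 13779 in the controls and 7467 to 12622 in the cDKO extracts, which overlapped. How far shifts in tissue make-up enter the values of S100b and Th was not tested.

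The levels of some of the 7 genes moved together over the 8 extracts, which share arrays, dyes and slides. Pearson's r was 0.91 between S100b and Th, 0.85 between Elavl4 and Stmn2 and 0.78 between Sox10 and Foxd3, and between -0.13 and 0.64 for the other pairs. Among all other measured genes, the levels most like those of Th were Kcnk9, a potassium channel (r = 0.991), Slc18a1 (0.987) and Lrrn3, a leucine-rich repeat protein (0.979). For Foxd3 they were Calcb (0.935), Slc18a3, the vesicular acetylcholine transporter (0.916), and Nkx2-3 (0.912). For Stmn2 they were Lcorl (0.972), Mthfd2l (0.968) and P2rx3, an ATP receptor of sensory neurons (0.967). For S100b they were Plin2 (0.985), Fkbp7 (0.983) and 1 probe without a gene symbol (0.983). For Tubb3 they were Soga3 (0.976), Pcdhb17 (0.949) and 1 probe without a symbol (0.967). For Elavl4 they were Krtap5-1 (0.976), Nptn (0.970) and 1 probe without a symbol (0.972). For Sox10 they were Klf1 (0.963) and 2 probes without a symbol (0.967 and 0.963). With 8 extracts and 19365 genes, values this high are a ranking only.

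In the authors' deposited table, a signed fold per array, S100b was -1.72, -1.48, -1.19 and -1.32 on replicates 1 to 4, Th was -2.14, -2.45, 1.16 and -1.56, and Sox10 was -1.40, -1.34, 1.39 and -1.35. These have the signs given above on every array. For Stmn2 the authors' deposited table gives -1.01 and -1.02 on replicates 1 and 4, where the ratios above are slightly positive, and -2.01 and 2.53 on replicates 2 and 3.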

How the data were processed

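Total RNA was isolated with peqGOLD RNAPure, and 150 ng of it entered a low-input labelling kit for both dyes, per the labels' protocols. Per the file headers, Agilent Feature Extraction 10.7.3.1 gave the spot intensity, the local background intensity and a log10 ratio, red over green, per spot. A deposited value table by the authors holds a signed fold per probe; its centring is not given here by any source. Intensities were corrected with normexp (offset 50) and normalized within arrays by loess (span 0.3). Probes with at least 3 of 4 spots well above background on all 4 arrays in either genotype were kept (25591 of 39429), and the brightest kept probe stood for a gene. Levels are log2 intensities after scaling of mean intensities between arrays (Aquantile). The log2 ratios were tested with limma 3.58.1 (R 4.3.3), with terms for genotype and dye, two-sided, with Benjamini-Hochberg adjustment over 19365 genes; 2 residual and 4.53 prior degrees of freedom remained. Contrasts of slide and sex label used the same framework. The fit was tested on simulated data.

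The labels name no animals or pools, so p-values measure only the spread between these 4 pairs of extracts, which may be technical. Symbols were updated through RefSeq accessions for 28328 probes. Alternatives were background, centring, scanner ratios, the deposited table, filter, probe choice, dye, slide and sex terms, single slides, single channels and leaving out each array. The genes, the lists and the rule for names were chosen with earlier results of these data known. Named were the 7 genes, each list's genes past the test and its 4 smallest p, and the 3 genes most correlated with each of the 7 over the 8 levels. The number of arrays limits the precision.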

Additional observations from a re-analysis of the deposited data

Results flagged for a closer look

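The log2 ratio of Sox10 on replicate 3 was 0.33, against -0.38, -0.36 and -0.37 on the other 3 arrays. Its gap to the nearest of them was 0.971 of the whole range, above the critical value of Dixon's test for 4 values. The test was applied to the ratios, cDKO levels and control levels of the 7 genes, and chance flags about 1 in 20 such groups. The 4 spots of the probe on replicate 3 had an SD of 0.06.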

How the results depend on the processing

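None of the 7 genes passed with no background correction, offset 16, the scanner's own ratios, the deposited table, no filter, the mean of all probes, no dye term, a sex term, slide 2 alone or single channels. There were 1 with median centring (Th), 2 with a slide term (S100b and Th), 2 within slide 1 (Th and Tubb3) and 0 to 1 with 1 array left out (Th without replicate 3, Tubb3 without replicate 4). Signs held in every setting for S100b, Sox10, Th and Tubb3. Within slide 1, Elavl4 turned to -0.21 and Stmn2 to -0.46, and within slide 2 Foxd3 turned to 0.092. With 1 array left out, the lowest value coming without replicate 3 and the highest without replicate 1, Elavl4 ran from -0.14 to 0.22, Foxd3 from -0.20 to 0.14 and Stmn2 from -0.22 to 0.45; Th ran from -0.95 (without replicate 3) to -0.32 (without replicate 1). Over all genes, 165 passed, against 263 with offset 16, 255 with median centring, 258 with no dye term, 1 with no filter, 2418 with a slide term, 2 with a sex term, 551 within slide 1, 0 within slide 2 and 73 as single channels with no replicate block (pairing of the channels of an array); with 1 array left out the range was 34 (without replicate 1) to 403 (without replicate 4), with 56 without replicate 2 and 266 without replicate 3. The cause was not tested. The settings for the gene lists were chosen after seeing the data. Foxd3 and the dimmer Elavl4 probe lay near background, which limits their ratios.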
